A study of Homo sapiens with 12 samples.

Results

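The genes of protein kinase A (PKA) were examined in 2 human colorectal cancer cell lines: 3 genes of its inhibitor peptides (PKIA, PKIB and PKIG), 2 of its catalytic subunits (PRKACA and PRKACB) and 4 of its regulatory subunits (PRKAR1A, PRKAR1B, PRKAR2A and PRKAR2B). These 9 of the 17818 genes in the table were taken by name, and all 9 were found. The members were chosen by gene name, but the family was selected on measured values of these same means, among them the low TPM of PKIB in HCT116 cells with USP51. The USP51 and NC levels of the members are therefore given as descriptions. The groups were SW480 with USP51 overexpressed (genotype USP51-OE), SW480 with the vector (NC), HCT116 with USP51 overexpressed and HCT116 with the vector. USP51 encodes a ubiquitin-specific protease, an enzyme that takes ubiquitin off other proteins. The labels list 3 libraries in each group, 12 in all, from cells kept in serum-containing DMEM. They do not say whether a line is 1 clone or how the construct was delivered.

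All values are group means made by the authors. Columns for individual libraries carry codes that could not be tied to the labels, so there is no replicate spread and nothing was tested. The columns of the means carry a line name and a letter, C or E. C was read as NC and E as USP51 overexpression, and each direction rests on that reading. Levels are in TPM, a unit of transcript abundance scaled to transcript length and depth. Group means summed to between 15506686 and 15920306 estimated counts. A ratio of counts per total count is followed by its 95% exact (Clopper-Pearson) interval. It reflects counting error alone, as if each mean came from a single library. The USP51 transcript had 25.7 TPM in SW480 with USP51, against 0.513 TPM with NC. In HCT116 it had 40.8 TPM with USP51 and was listed at 0 with NC. Of 8 colon epithelial markers, 6 had at least 1 TPM in each group, with summed levels of 4917 to 10193 TPM. CDH1 was among them, at 7.19 to 41.5 TPM, while VIL1 was near 0 in HCT116, KRT20 near 0 in SW480 and CDX1 near 0 in both lines. The 6 fibroblast markers in the table summed to 1.51 TPM with USP51 and 1.77 TPM with NC in SW480, and to 15.4 TPM with USP51 and 10.1 TPM with NC in HCT116. Nearly all of that was COL1A1, at 15.1 TPM with USP51 and 9.95 TPM with NC in HCT116, while COL1A2, COL3A1 and DCN were at or near 0. The 5 leukocyte markers summed to 1.19 to 3.20 TPM, of which CD14 held 2.25 TPM with USP51 and 1.18 TPM with NC in SW480, and PTPRC was at or near 0. The 3 endothelial markers summed to 0.12 to 0.313 TPM. In bulk RNA, fewer cells expressing a gene and less RNA per cell cannot be told apart.

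PKA is the main effector of cyclic AMP. In the resting enzyme a pair of regulatory subunits holds a pair of catalytic subunits inactive, and binding of cyclic AMP to the regulatory subunits frees the catalytic ones to phosphorylate their substrates. The regulatory subunits come in type I (PRKAR1A, PRKAR1B) and type II (PRKAR2A, PRKAR2B) forms, and anchoring proteins place the enzyme, mostly through the type II forms, at particular sites in the cell. The PKI peptides bind free catalytic subunits as pseudosubstrates and carry them out of the nucleus, where PKA would otherwise phosphorylate the transcription factor CREB.

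The stretches of 250 bases before 5 annotated starts are shown. Those of PKIB and PRKACB were taken because some of the transcript models below start in or next to them. That of PRKAR1A holds the full palindrome to which CREB binds. All 5 stretches are from RefSeq, build GRCh38.p14, plus strand, written 5′ to 3′. Capitals mark TGACG or its reverse complement CGTCA, the core of the cyclic AMP response element; both strands were searched, and in the full element TGACGTCA the cores overlap. Of 35116 such stretches in the RefSeq table, 21.2% hold a core and 1.65% the full element.
PKIB upstream start, chr6:122471671-122471920: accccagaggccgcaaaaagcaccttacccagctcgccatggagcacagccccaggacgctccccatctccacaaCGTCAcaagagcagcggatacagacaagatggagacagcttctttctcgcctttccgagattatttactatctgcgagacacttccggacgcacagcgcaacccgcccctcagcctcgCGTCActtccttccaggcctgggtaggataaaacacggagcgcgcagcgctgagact
PKIB downstream start, chr6:122610155-122610404: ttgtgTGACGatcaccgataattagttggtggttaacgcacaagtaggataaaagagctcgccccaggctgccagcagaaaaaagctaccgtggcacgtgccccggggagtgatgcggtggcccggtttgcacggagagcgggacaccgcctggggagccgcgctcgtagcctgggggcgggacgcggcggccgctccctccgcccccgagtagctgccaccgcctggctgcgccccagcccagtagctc
PRKACB first start, chr1:84077829-84078078: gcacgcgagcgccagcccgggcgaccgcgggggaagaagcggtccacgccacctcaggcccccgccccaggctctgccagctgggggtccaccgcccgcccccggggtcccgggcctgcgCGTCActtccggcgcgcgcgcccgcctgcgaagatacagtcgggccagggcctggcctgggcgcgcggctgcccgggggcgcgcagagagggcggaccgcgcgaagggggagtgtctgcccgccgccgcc
PRKACB second start, chr1:84144021-84144270: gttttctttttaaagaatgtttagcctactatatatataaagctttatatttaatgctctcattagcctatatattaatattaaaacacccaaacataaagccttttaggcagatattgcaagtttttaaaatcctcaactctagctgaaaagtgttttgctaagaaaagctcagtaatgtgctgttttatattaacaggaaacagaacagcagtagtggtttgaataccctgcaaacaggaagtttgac
PRKAR1A, chr17:68512180-68512429: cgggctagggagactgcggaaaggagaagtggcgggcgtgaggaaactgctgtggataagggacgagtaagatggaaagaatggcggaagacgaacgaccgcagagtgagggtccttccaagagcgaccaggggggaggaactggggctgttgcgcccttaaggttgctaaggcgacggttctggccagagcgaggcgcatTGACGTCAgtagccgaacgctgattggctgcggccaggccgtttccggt
The upstream PKIB stretch holds 2 cores, the downstream one 1, the first PRKACB stretch 1 and the second PRKACB stretch 0. In PRKAR1A the full element begins 49 bases before the RefSeq start at 68512430. The GENCODE 29 start with the highest TPM of the gene, 68512379, lies within the printed stretch and just before the element, so the element is not upstream of it, and the 250 bases before that start hold 0 cores. That start had 56.5 TPM with USP51 and 49.3 TPM with NC in HCT116 and 24.1 TPM with USP51 and 25.8 TPM with NC in SW480. The first PRKACB stretch has 37 CpG dinucleotides and 80.8% G or C, whereas the second has 0 CpG and 30.8% G or C; the median over all stretches is 11 CpG. A match of letters is a description of the sequence and not evidence of binding.

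**Figure D1:**
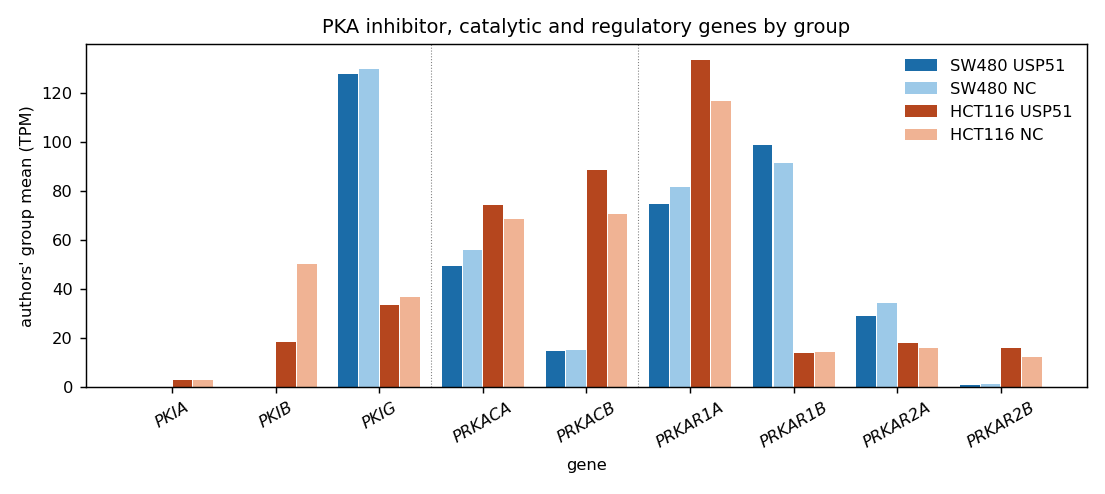
Authors' group mean in TPM (linear axis from 0) of each PKA gene, with bars for SW480 USP51, SW480 NC, HCT116 USP51 and HCT116 NC. PKIB stands at 18.3 TPM in HCT116 with USP51 and at 50.3 TPM in HCT116 with NC, and near 0 in SW480, where PKIG is the inhibitor gene with the tallest bars.

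Among the inhibitors, PKIB differed most with USP51, and in HCT116. The gene lies on chromosome 6 (122471921 to 122726373 in GRCh38.p14, as for all genes below; NCBI gene 5570). Its level was 18.3 TPM in HCT116 with USP51, against 50.3 TPM in HCT116 with NC. The mean counts were 209 with USP51 and 546 with NC, a ratio of 0.391 (0.331 to 0.459). On the scale log2((TPM with USP51 + 1)/(TPM with NC + 1)), used for genes with at least 1 TPM in a compared group, the ratio was -1.41. It was the third lowest of the 12393 genes measured in HCT116. PKIB was the 1 of 9 members at least 1.5-fold lower there, a size passed by 0.145% of all measured genes, and none of the 9 was at least 1.5-fold higher, against 1.96% of all genes. At 2-fold PKIB was still counted as lower, as were 0.0242% of all genes, and 0.258% of all genes were higher. In SW480 the gene was practically silent, at 0 TPM with USP51 and 0.0467 TPM with NC, on means of 0 and 0.333 counts. Both lie under the floor of 3 counts, so no ratio between them was formed and a response of PKIB in SW480 was not detectable at this depth.

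The other inhibitor genes stayed closer to their NC values. PKIG (chromosome 20, 44531875 to 44619037) was at 33.4 TPM with USP51 and 36.9 TPM with NC in HCT116, a count ratio of 0.889 (0.757 to 1.04). In SW480 it was at 128 TPM with USP51 and 129.5 TPM with NC, a count ratio of 1.02 (0.941 to 1.11), and the sign of its log2 ratio there depended on the scaling, between -0.04 and 0.05. PKIA (chromosome 8, 78516340 to 78605267) was at 2.99 TPM with USP51 and 3.07 TPM with NC in HCT116, a count ratio of 0.960 (0.735 to 1.25). Its log2 ratio there lay between -0.07 and 0.18 over the alternatives. In SW480 PKIA was at 0.02 TPM with USP51 and 0.117 TPM with NC, on 0.667 and 4.33 counts, too few to show a difference.

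In TPM, most of the PKIB difference in HCT116 lay in 1 predicted transcript model, and part of it in curated ones. The table holds 11 PKIB transcripts, 5 curated and the others predicted. The predicted model XM_011535935.2 was at 5.44 TPM with USP51 and 28.4 TPM with NC, the largest difference of the gene. The curated NM_181795.3 was at 7.09 TPM with USP51 and 15.2 TPM with NC, and NM_032471.5 at 0.803 TPM with USP51 and 3.22 TPM with NC. Both curated models match GENCODE 29 transcripts that start at position 122610232 of chromosome 6, inside the downstream stretch printed above, and together they gave 7.89 TPM with USP51 and 18.4 TPM with NC. The 3 curated models of the upstream start were low. NM_001270394.1, which starts at 122471917 inside the printed upstream stretch, was at 0.163 TPM with USP51 and 0.18 TPM with NC, and the 2 models that start at 122471931 summed to 0.81 TPM with USP51 and 0.80 TPM with NC. One predicted model, XM_011535936.1, ran the other way, at 2.63 TPM with USP51 and 0.01 TPM with NC. The 6 predicted models, XM_011535935.2 among them, had no matched start. They summed to 9.42 TPM with USP51 and 30.9 TPM with NC, so the larger part of the PKIB difference could not be placed at a start. How the authors divided reads between overlapping transcripts is not given in the sources used here, and whether that division moves with these values was not tested. With the curated transcripts alone, the gene's log2 ratio was -1.05.

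**Figure D2:**
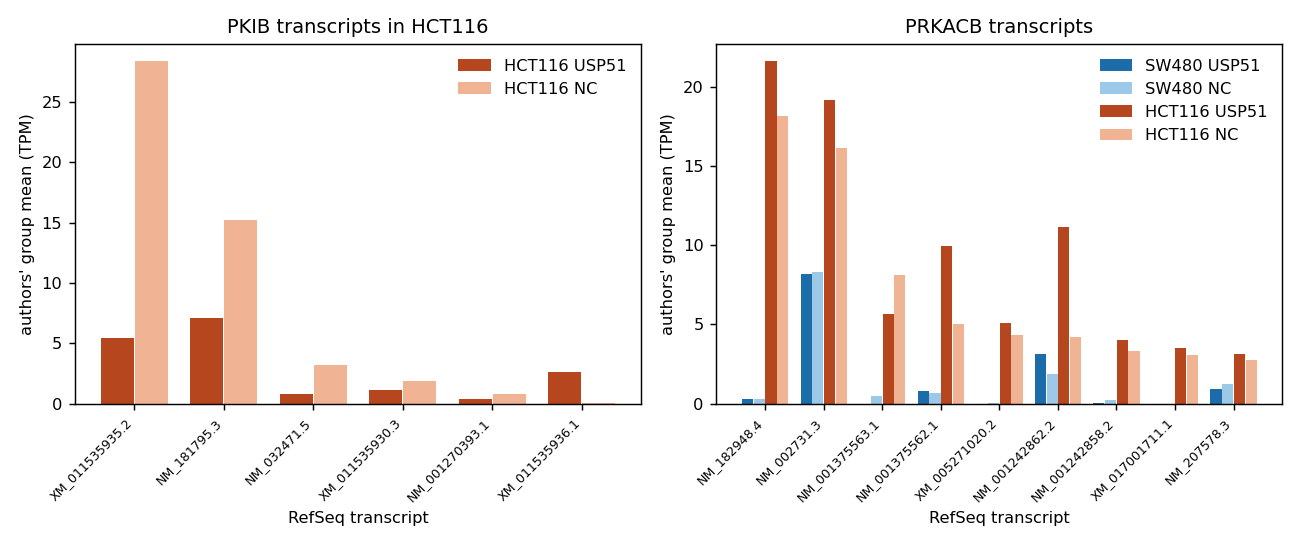
Authors' group mean in TPM (linear axes from 0) of single RefSeq transcripts. At left are the PKIB models with at least 0.5 TPM in HCT116 with USP51 or with NC, and at right the PRKACB models with at least 3 TPM in any group. The PKIB model XM_011535935.2 stands at 5.44 TPM with USP51 and 28.4 TPM with NC, and PRKACB model NM_182948.4 stands at 21.7 TPM with USP51 and 18.2 TPM with NC in HCT116 and near 0 in SW480.

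The catalytic subunit genes were slightly higher in HCT116 with USP51. PRKACB (NCBI gene 5567, chromosome 1, 84078079 to 84238498) was at 88.7 TPM with USP51 and 70.8 TPM with NC in HCT116, a count ratio of 1.22 (1.16 to 1.29). PRKACA (NCBI gene 5566, chromosome 19, 14091688 to 14117762) was at 74.2 TPM with USP51 and 68.5 TPM with NC, a count ratio of 1.06 (0.993 to 1.14). Neither reached 1.5-fold, and PRKACB ranked 1067 from the highest log2 ratio. In SW480, PRKACA was at 49.4 TPM with USP51 and 56.05 TPM with NC, a count ratio of 0.913 (0.844 to 0.987). PRKACB was at 14.8 TPM with USP51 and 15.0 TPM with NC there, a count ratio of 1.04 (0.926 to 1.16) whose log2 sign changed with the scaling.

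PRKACB is read from alternative first exons, which give catalytic subunits with different amino-terminal ends, and its models did not share the difference evenly. Across its 21 transcripts, NM_001242862.2, whose GENCODE start is position 84181660, was at 11.2 TPM with USP51 and 4.21 TPM with NC in HCT116, and at 3.14 TPM with USP51 and 1.84 TPM with NC in SW480. NM_001375562.1 was at 9.97 TPM with USP51 and 5.06 TPM with NC in HCT116. NM_001375563.1 ran the other way, at 5.64 TPM with USP51 and 8.13 TPM with NC. The models of the first and second printed starts were nearer to their NC values in HCT116. NM_002731.3, which starts at 84078062, was at 19.2 TPM with USP51 and 16.2 TPM with NC, and NM_182948.4, which starts at 84144271, at 21.7 TPM with USP51 and 18.2 TPM with NC. Another 12 models, NM_001375562.1 and NM_001375563.1 among them, had no matched start. In HCT116 these 12 summed to 28.4 TPM with USP51 and 25.5 TPM with NC.

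The type I regulatory genes differed by small amounts. PRKAR1A (chromosome 17, 68413623 to 68551316), the gene mutated in Carney complex, was at 133 TPM with USP51 and 117 TPM with NC in HCT116, a count ratio of 1.15 (1.10 to 1.20). In SW480 it was at 74.7 TPM with USP51 and 81.5 TPM with NC, while its count ratio was 0.991 (0.938 to 1.05), and its log2 ratio ranged from -0.26 to 0.00 over the alternatives. PRKAR1B (chromosome 7, 549197 to 728934), known mostly from brain, was at 13.9 TPM with USP51 and 14.2 TPM with NC in HCT116, a count ratio of 0.959 (0.818 to 1.12). In SW480 it was at 98.5 TPM with USP51 and 91.3 TPM with NC, a count ratio of 1.11 (1.05 to 1.18).

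The type II regulatory genes stood above NC in HCT116 and below NC in SW480. PRKAR2B (chromosome 7, 107044705 to 107161811) was at 16.1 TPM with USP51 and 12.4 TPM with NC in HCT116, a count ratio of 1.27 (1.12 to 1.44). It was near the lower limit of measurement in SW480, at 1.06 TPM with USP51 and 1.18 TPM with NC, a count ratio of 0.935 (0.591 to 1.48). PRKAR2A (chromosome 3, 48744591 to 48847874) was at 18.1 TPM with USP51 and 16.2 TPM with NC in HCT116, a count ratio of 1.09 (1.002 to 1.19). In SW480 it was at 28.98 TPM with USP51 and 34.4 TPM with NC, a count ratio of 0.867 (0.814 to 0.922). Among the members, 3 share genomic sequence with a coding gene on the opposite strand, PKIG with ADA, PRKAR1A with FAM20A and PRKAR1B with DNAAF5. Whether counting used strand is not given in the sources used here, so reads of such partners cannot be told apart.

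**Figure D3:**
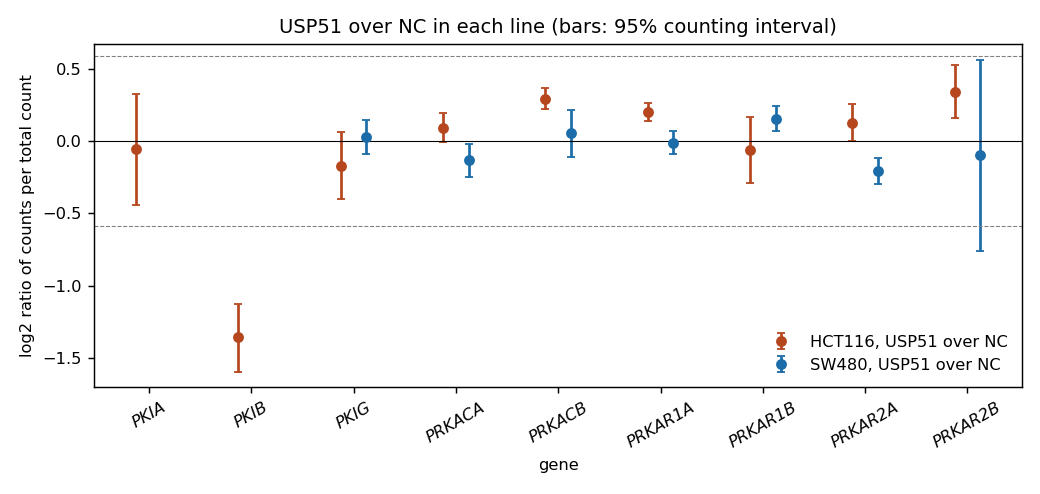
Log2 ratio of counts per total count, USP51 over NC, for each PKA gene in HCT116 (red-brown) and SW480 (blue). Bars are 95% exact intervals for counting error only, dashed lines mark 1.5-fold, and genes under 1 TPM in both groups are left out. PKIB in HCT116, at a count ratio of 0.391, is the only point beyond a dashed line.

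Over the family, the median log2 ratio was 0.11 for the 9 members in HCT116 and 0.04 for all 12393 genes measured there. In SW480 the median was -0.08 for the 7 measured members and -0.04 for all 12175 genes. None of the 7 reached 1.5-fold in SW480, where 0.534% of all genes were that much higher and 0.879% that much lower (0.0739% and 0.123% at 2-fold). As a difference of log2 ratios, HCT116 minus SW480, the 7 members measured in both lines lay between -0.14 (PRKAR1B) and 0.43 (PRKAR2B), with a median of 0.31. Those values are in TPM. In counts scaled with RLE factors the 7 lay between -0.25 (PRKAR1B) and 0.38 (PRKAR2B), and the middle value was 0.18 (PRKACA). The median of all 11332 genes was 0.08 in TPM and -0.02 in counts scaled with RLE factors, so a difference near 0.1 depends on the scaling. None of the members' differences in TPM passed 1.5-fold, against 3.95% of all genes upward and 0.459% downward (0.591% and 0.0618% at 2-fold).

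The lines differed from each other far more than USP51 differed from NC. In the NC cells, SW480 against HCT116, 3 of 9 members were at least 1.5-fold higher and 4 at least 1.5-fold lower. That is common between these lines, at 22.6% and 27.0% of 13033 genes. The same 7 members passed 2-fold, against 13.4% of all genes higher and 14.7% lower. The inhibitor PKIG was at 129.5 TPM in SW480 and 36.9 TPM in HCT116, a count ratio of 3.53 (3.13 to 4.004). PKIB was at 0.0467 TPM in SW480 and 50.3 TPM in HCT116. With the SW480 mean set at the floor of 3 counts, it was about 180-fold lower in SW480. The upper bound of the exact interval of the ratio was 0.00687, which allows a smaller fold. PKIA was at 0.117 TPM in SW480 and 3.07 TPM in HCT116, a count ratio of 0.0340 (0.00913 to 0.0895). The 3 inhibitors thus did not share 1 direction between the lines.

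Of the catalytic genes, mainly PRKACB differed between the lines, and the regulatory genes differed in both directions. PRKACB was at 15.0 TPM in SW480 with NC and 70.8 TPM in HCT116 with NC, a count ratio of 0.215 (0.196 to 0.235), whereas PRKACA was at 56.05 TPM in SW480 and 68.5 TPM in HCT116, a count ratio of 0.834 (0.775 to 0.898). The PRKACB model of the second start, NM_182948.4, was at 0.26 TPM in SW480 and 18.2 TPM in HCT116, while that of the first start, NM_002731.3, was at 8.29 TPM in SW480 and 16.2 TPM in HCT116. PRKAR1B was at 91.3 TPM in SW480 and 14.2 TPM in HCT116, a count ratio of 6.32 (5.62 to 7.12). PRKAR2A was at 34.4 TPM in SW480 and 16.2 TPM in HCT116, a count ratio of 2.18 (2.02 to 2.35). Its log2 ratio was 1.04, and 1.92 with curated transcripts alone. PRKAR2B was at 1.18 TPM in SW480 and 12.4 TPM in HCT116, a count ratio of 0.0952 (0.0676 to 0.131). PRKAR1A was at 81.5 TPM in SW480 and 117 TPM in HCT116, a count ratio of 0.690 (0.656 to 0.726). The order of the regulatory genes differed with the line: PRKAR1B was the most abundant in SW480 and PRKAR1A in HCT116, both with USP51 and with NC.

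Summed per class, the transcripts of the inhibitors stood at 128 TPM in SW480 with USP51 and 129.7 TPM in SW480 with NC, and at 54.7 TPM in HCT116 with USP51 and 90.25 TPM in HCT116 with NC. PKIG made up 99.98% and 99.9% of that sum in SW480 with USP51 and with NC. In HCT116, PKIB made up 33.4% with USP51 and 55.7% with NC, so the most abundant inhibitor gene was PKIG with USP51 and PKIB with NC. That order rests on predicted transcripts: with curated ones alone PKIG led in both, at 33.3 TPM beside 8.87 TPM of PKIB with USP51, and at 36.6 TPM beside 19.4 TPM with NC. Catalytic transcripts summed to 64.2 TPM in SW480 with USP51, 71.1 TPM in SW480 with NC, 163 TPM in HCT116 with USP51 and 139 TPM in HCT116 with NC. Inhibitor TPM per catalytic TPM was therefore 1.99 in SW480 with USP51 and 1.83 in SW480 with NC, and 0.336 in HCT116 with USP51 and 0.648 in HCT116 with NC. With curated transcripts alone the HCT116 values were 0.311 with USP51 and 0.481 with NC, a smaller gap. These are ratios of RNA and do not measure protein.

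Regulatory transcripts clearly outnumbered catalytic ones in SW480 and were close to them in HCT116. Regulatory TPM per catalytic TPM was 3.16 in SW480 with USP51, 2.93 in SW480 with NC, 1.11 in HCT116 with USP51 and 1.14 in HCT116 with NC. With curated transcripts alone the HCT116 values were 0.908 with USP51 and 0.974 with NC, so which class was larger there depends on the predicted models. Type I genes held 85.2% of the regulatory sum in SW480 with USP51, 82.9% in SW480 with NC, 81.2% in HCT116 with USP51 and 82.1% in HCT116 with NC. The share of type I transcripts was thus similar in all 4 groups although the gene behind it was not the same: PRKAR1B held 43.8% of the regulatory sum in SW480 with NC and 8.93% in HCT116 with NC, and PRKAR1A held 39.1% in SW480 with NC and 73.1% in HCT116 with NC.

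**Figure D4:**
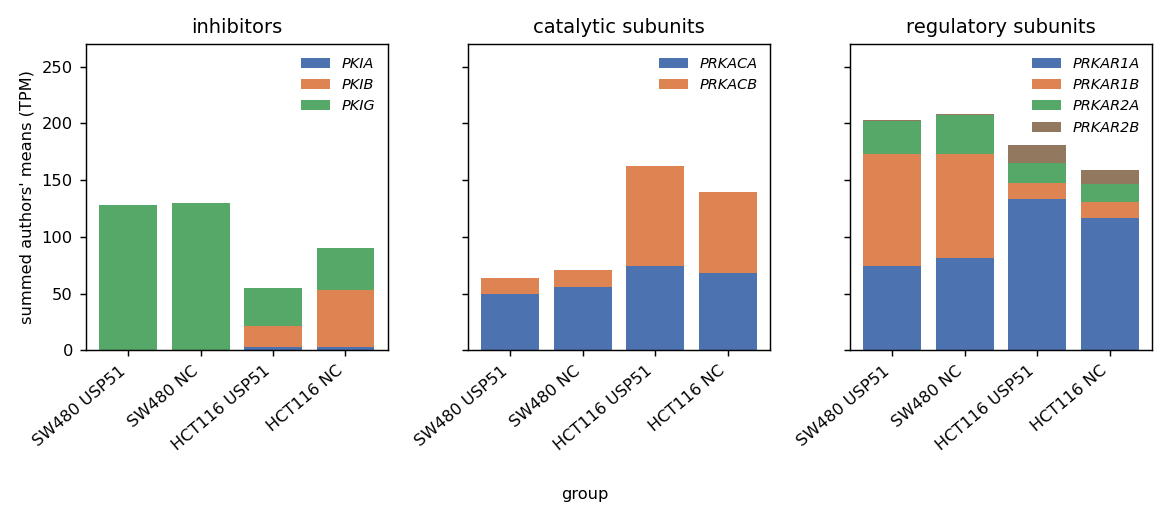
Summed authors' means in TPM (linear axis from 0) of the inhibitor, catalytic and regulatory genes in SW480 USP51, SW480 NC, HCT116 USP51 and HCT116 NC, stacked by gene. The inhibitor sum is 54.7 TPM in HCT116 with USP51 and 90.25 TPM in HCT116 with NC, and about 128 to 130 TPM in SW480.

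The genes whose 4 means most resembled those of PKIB were also near 0 in SW480. Likeness was the distance between log2(TPM + 1) values, each centred on its own mean over the 4 groups, among 9199 other genes with at least 10 TPM in a group. The nearest was ANXA10, an annexin gene, at a distance of 0.72, with 17.6 TPM in HCT116 with USP51 and 27.7 TPM in HCT116 with NC. ADGRF1, an adhesion G protein-coupled receptor gene, followed at 0.75, with 19.9 TPM with USP51 and 27.6 TPM with NC. MAGEA2B (0.92), whose reads can be shared with its near-identical copy, SUMO4 (0.98) and KRTCAP3 (0.99) came next. The distance rests on 4 points and mostly on the difference between the lines: KRTCAP3 was at 47.1 TPM with USP51 and 48.5 TPM with NC in HCT116, a far smaller difference than that of PKIB.

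The rest of the cyclic AMP pathway was taken from lists of 110 genes found in the table. The lists mix genes whose products raise cyclic AMP with genes whose products lower it. A count of genes above NC is therefore not a direction of signalling. In HCT116 57 of 74 measured genes were above NC and 17 below, with a median log2 ratio of 0.12, beside 0.04 for all genes. With TMM-scaled counts 49 were above and 25 below, with a median of 0.07, beside -0.01 for all genes. The share of all genes above NC was not computed, here or for the single lists below. In TPM the all-gene median was above 0 in HCT116, so most genes were above NC there. Of the 74, 5 were at least 1.5-fold higher with USP51 (1.96% of all genes) and 0 that much lower (0.145% of all genes). In SW480 30 of 66 were above NC and 36 below, with a median of -0.03, and 0 reached 1.5-fold in either direction. That median was 0.02 with TMM-scaled counts, so its sign in SW480 depends on the scaling.

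Upstream of PKA, the receptor list had a median of 0.29 in HCT116, with 9 of 12 measured genes above NC. DRD1, the D1 dopamine receptor gene, was at 1.80 TPM with USP51 and 0.84 TPM with NC, on 68.3 and 33.3 counts, a ratio of 2.10 (1.37 to 3.29); in FPKM it fell short of 1.5-fold. The adenosine receptor genes ADORA1 (4.01 TPM with USP51, 2.52 TPM with NC) and ADORA2A (6.22 TPM with USP51, 4.15 TPM with NC) and the prostaglandin E2 receptor gene PTGER2 (1.48 TPM with USP51, 0.753 TPM with NC) stood above NC by less than 1.5-fold on log2(TPM + 1). In SW480 4 of 8 measured receptor genes were above NC, with a median of -0.05. DRD1, ADORA1, ADORA2A and PTGER2 were low, but others were not. ADRA2C, an alpha-2 adrenergic receptor gene, was at 68.6 TPM with USP51 and 67.3 TPM with NC in SW480. The adenosine receptor gene ADORA2B was at 51.9 TPM with USP51 and 60.3 TPM with NC in HCT116, a count ratio of 0.837 (0.764 to 0.918). HTR7 was at 12.9 TPM with USP51 and 17.9 TPM with NC in HCT116, a count ratio of 0.709 (0.624 to 0.805). VIPR1 had a count ratio of 0.854 (0.728 to 1.002) in HCT116. In SW480 VIPR1 was at 22.65 TPM with USP51 and 30.3 TPM with NC, a count ratio of 0.769 (0.692 to 0.855). ADORA2B, HTR7 and VIPR1 were the 3 measured receptor genes below NC in HCT116. ADRA2C, ADORA2B, HTR7 and VIPR1 were chosen after their values were seen.

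G protein and cyclase genes lay closer to NC. GNAS, which encodes the stimulatory G protein subunit, was the most abundant of those named, at 1236 TPM with USP51 and 1145 TPM with NC in SW480 and at 996 TPM with USP51 and 907 TPM with NC in HCT116. GNAI2, an inhibitory subunit gene, was at 167 TPM with USP51 and 217 TPM with NC in SW480, a count ratio of 0.793 (0.758 to 0.829), and at 180.5 TPM with USP51 and 159.96 TPM with NC in HCT116, a count ratio of 1.11 (1.06 to 1.16). GNAZ was at 12.1 TPM with USP51 and 9.10 TPM with NC in HCT116, and GNAL at 4.52 TPM with USP51 and 3.62 TPM with NC. All 4 measured adenylyl cyclase genes, whose enzymes make cyclic AMP, were above NC in both lines, under each scaling tried, with medians of 0.11 in HCT116 and 0.10 in SW480. ADCY9 differed most in HCT116, at 5.11 TPM with USP51 and 4.11 TPM with NC, a count ratio of 1.24 (1.07 to 1.44). ADCY3 differed most in SW480, at 57.1 TPM with USP51 and 49.6 TPM with NC, a count ratio of 1.19 (1.12 to 1.26). The counting intervals of the other cyclase genes in each line included no difference.

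Of the phosphodiesterases, which break cyclic AMP down, 5 of 6 measured genes were above NC in HCT116, with a median of 0.20. PDE2A was past 1.5-fold, at 4.94 TPM with USP51 and 2.49 TPM with NC, a count ratio of 1.94 (1.52 to 2.49). PDE8A was at 31.9 TPM with USP51 and 26.8 TPM with NC, and PDE3B at 4.10 TPM with USP51 and 2.99 TPM with NC. The lines differed in opposite directions at a pair of these genes. PDE4D was at 57.0 TPM with USP51 and 67.5 TPM with NC in SW480 but only 0.673 TPM with USP51 and 0.53 TPM with NC in HCT116. PDE4B, chosen after its values were seen, was at 0.0333 TPM with USP51 and 0 TPM with NC in SW480, but at 54.0 TPM with USP51 and 60.25 TPM with NC in HCT116. Anchoring proteins had 13 of 20 measured genes above NC in HCT116 and 5 of 16 in SW480, with medians of 0.08 and -0.06 and none past 1.5-fold. EZR, the gene of ezrin, was at 668 TPM with USP51 and 615 TPM with NC in HCT116 and at 109.6 TPM with USP51 and 130 TPM with NC in SW480. PALM2AKAP2 was at 23.9 TPM with USP51 and 20.2 TPM with NC in HCT116.

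Other binders of cyclic AMP and the kinase gene PRKX, a relative of the PKA catalytic genes, gave 1 larger value in SW480. PRKX was at 4.57 TPM with USP51 and 2.87 TPM with NC in SW480, a count ratio of 1.64 (1.36 to 1.99), just under 1.5-fold on log2(TPM + 1), and at 11.1 TPM with USP51 and 11.4 TPM with NC in HCT116. POPDC1, the gene of a cyclic AMP-binding membrane protein, was at 2.34 TPM with USP51 and 1.39 TPM with NC in HCT116.

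At the far end of the pathway, the list of CREB factors and coactivators had medians of 0.04 in HCT116 (the median of all genes) and -0.08 in SW480. None of its 11 genes was past 1.5-fold. The list also holds the kinase genes SIK1, SIK2 and SIK3, which encode neither factors nor coactivators. SIK2 and SIK1 had its largest log2 ratios in HCT116, at 0.44 and 0.41. CREB1 was at 15.3 TPM with USP51 and 14.6 TPM with NC in HCT116 and at 9.40 TPM with USP51 and 12.6 TPM with NC in SW480. SIK2, the gene of a kinase that PKA phosphorylates, was at 14.2 TPM with USP51 and 10.2 TPM with NC in HCT116 and at 16.4 TPM with USP51 and 19.4 TPM with NC in SW480. Among known CREB target genes, 11 of 14 were above NC in HCT116, with a median of 0.17, and 4 of 13 in SW480, with a median of -0.16. Of the targets, 3 were at least 1.5-fold higher in HCT116, against 1.96% of all genes: NR4A1, NR4A2 and RGS2. NR4A2 fell short of 1.5-fold with curated transcripts alone, and RGS2 with TMM-scaled counts. In HCT116 the orphan nuclear receptor genes NR4A1 and NR4A2 were at 178 TPM with USP51 and 94.6 TPM with NC, and at 59.9 TPM with USP51 and 36.7 TPM with NC. RGS2, a regulator of G protein signalling, was at 60.8 TPM with USP51 and 38.7 TPM with NC there, a count ratio of 1.54 (1.37 to 1.75). In SW480 NR4A1 was at 51.5 TPM with USP51 and 60.0 TPM with NC, a count ratio of 0.891 (0.826 to 0.961). NR4A2 was at 1.68 TPM with USP51 and 2.30 TPM with NC in SW480. The 3 targets below NC in HCT116 were CCNA2, PDE4B and CREM. CCNA2 and CREM were chosen after their values were seen. The neurotrophin gene BDNF was at 20.4 TPM with USP51 and 14.0 TPM with NC in HCT116 and at 3.64 TPM with USP51 and 2.52 TPM with NC in SW480. Many of these targets also answer growth factor signals, and whether their values move with PKIB was not tested.

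**Figure D5:**
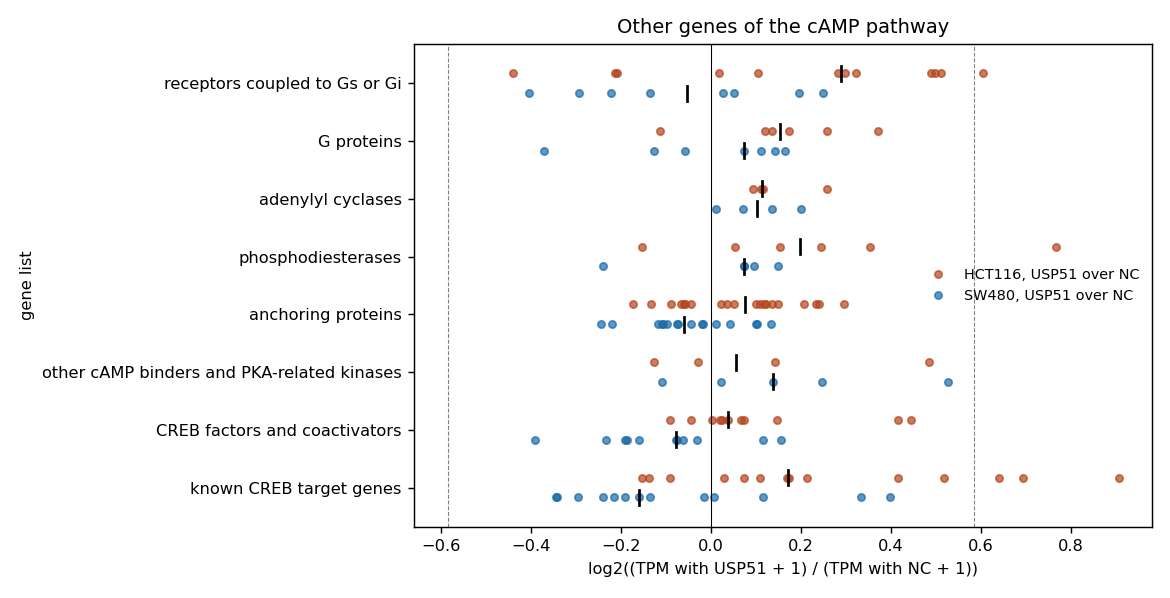
Log2((TPM with USP51 + 1)/(TPM with NC + 1)) of the measured genes in each list of the cyclic AMP pathway, in HCT116 (red-brown, upper row of each list) and SW480 (blue, lower row). Black ticks are medians and dashed lines mark 1.5-fold. The 5 points past a dashed line, DRD1, PDE2A, NR4A1, NR4A2 and RGS2, are all from HCT116.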

How the data were processed

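The labels describe 12 libraries of total RNA in 4 groups of 3, extracted with TRIzol and prepared for BGISEQ500 sequencing. TopHat, the build hg38 and DESeq 1.32.0 appear in the submitters' processing notes with no role given; how reads were counted is not stated. The table as deposited lists 84345 RefSeq transcripts (44726 curated, 39619 predicted) of 17818 genes. Per the file headers, the authors give group means of FPKM, of TPM and of estimated counts, which need not be whole. The 36 single-library columns match no label and were not used, so the planned replicate tests were not run. Transcripts were summed per gene, and symbols came from RefSeq GRCh38.p14 (17672 matched). Genes with at least 1 TPM in a compared group were measured, and the pseudocount was 1 TPM. A difference of 1.5-fold was a rule of size, not a test. Intervals are 95% exact Clopper-Pearson intervals (scipy 1.17.1) on means rounded to whole counts. Their code was checked on simulated counts that held counting error alone. That check cannot show how the intervals cover spread between libraries. RLE, TMM and upper-quartile factors came from edgeR 4.0.16 in R 4.3.3, on the rounded means. Transcript starts came from GENCODE 29, by RefSeq accession without version.

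The members, the lists and the size rule were chosen with earlier results of these data known. Named genes were the 9 members, USP51, up to 4 genes of each list with the largest absolute log2 ratio in either line, and the 5 genes nearest to PKIB. Y-linked genes were left out of that last choice after the values were seen. Some named genes are given by their group only.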

Additional observations from a re-analysis of the deposited data

How the results depend on the processing

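PKIB was at least 1.5-fold lower in HCT116 with USP51 under every scaling, pseudocount, filter and transcript choice tried, with log2 ratios between -1.45 and -1.05, and at 2-fold it was still counted. The counts of members past 1.5-fold did not change in either line. Between the NC groups they changed once, to 5 lower members instead of 4 with curated transcripts, which add PRKAR1A. In the difference between the lines, without the filter on low genes PKIB enters, and 1 member lay 1.5-fold lower instead of 0. Of 256 values of single members under an alternative, 244 kept their sign and 12 changed it: PKIA in HCT116, and PKIG, PRKACB and PRKAR1A in SW480. Of the 256, 24 shifted beyond the reach of their counting interval (0.2 for differences between lines), counting PKIB between the NC groups, whose ratio of 0 gives no such reach. The number of cyclic AMP pathway genes at least 1.5-fold higher in HCT116 was 8 with a pseudocount of 0.1, against 5 (1.96% of all genes). At 2-fold it was 0 (0.258% of all genes). Shares of all genes under the other settings are not given here. Of the 5, NR4A2 was lost with curated transcripts, RGS2 with TMM factors and DRD1 with FPKM. POPDC1, not among the 5, passed 1.5-fold in HCT116 in CPM without factors, on 124 counts with USP51 and 77.4 with NC. In SW480 the number of genes at least 1.5-fold higher was 1 instead of 0 with a pseudocount of 0.1, in CPM under each factor, and with curated transcripts. Curated transcripts also gave 1 gene, NR4A2, at least 1.5-fold lower there. Inhibitor TPM per catalytic TPM with curated transcripts was 1.98 in SW480 with NC and 0.481 in HCT116 with NC. The cause of these shifts was not tested. The alternatives for the pathway lists and for class ratios were added after the data were seen. No paired analysis was possible because the means carry no replicate numbers; for the same reason leaving out a replicate and DESeq2 were not run.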
